A study of Mus musculus with 6 samples.

Results

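The genes described here are 33 interferon-stimulated genes, chosen by name from a matrix of 53465 genes: the rows whose Ensembl identifier carries the symbol of a textbook interferon target. All 33 were found, each with a single identifier. They were taken as 27 type I targets and 6 GTPases (Gbp2, Gbp3, Gbp7, Igtp, Iigp1 and Irgm1), and 32 had enough reads to be tested. The RNA came from cortical brain endothelial cells of male mice, 8 to 12 weeks old, all of which carried the alleles tie2-Cre, ai9 and rpl22HA/HA. Controls received phosphate buffered saline (PBS), and the other group pentylenetetrazol (PTZ), a GABA-A receptor blocker that causes convulsions. Each group held 3 libraries, numbered 1, 2 and 4. The Tie2 promoter drives Cre in endothelium but also in some blood cells, so that macrophages can carry the ribosomal tag too. No source used here states the PTZ dose, the time to collection or whether a library is a single animal. The p-values therefore cover the spread among these libraries alone, and that spread may be technical.

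Interferons are cytokines, and those of type I are released by cells after sensing viral or displaced nucleic acid. Type I interferons bind the receptor of Ifnar1 and Ifnar2 and act through the kinases Jak1 and Tyk2 on a complex with STAT2 and IRF9, which binds the interferon-stimulated response element (ISRE) of its target genes. Interferon gamma acts through Jak1 and Jak2 on the gamma-activated site (GAS) of its targets, and it is known for inducing the guanylate-binding proteins and the immunity-related GTPases, although many targets answer to both. Endothelial cells of brain vessels express the receptors and are known to hold some of these genes at a resting level.

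Gene reads ran from 11107481 to 15406967 per library, and 22683 to 25620 genes had at least 1 read. Levels are given as CPM, counts per a fixed number of library reads, after TMM scaling. Fold changes are PTZ against PBS on the log2 scale, from edgeR's quasi-likelihood test over 13768 genes with Benjamini-Hochberg adjustment. The 10 markers of endothelium summed to 10938, 15215 and 11640.2 CPM in PBS libraries 1, 2 and 4 and to 10428, 17674 and 11693 CPM in PTZ. The 12 markers of microglia and macrophages, cells that also express interferon targets, summed to 3192, 2635 and 3044 CPM and to 1760.0, 2342 and 2724 CPM. Of these 12 markers 11 had a negative log2 fold change (median -0.37), where 47.3% of all genes tested did, and 0 were without a read. Lower at an unadjusted p under 0.05 in edgeR were 2 of the 12, where 3.38% of all genes were. Markers of pericytes and smooth muscle summed to 197, 290.3 and 562 CPM in PBS and to 1068, 339 and 1011 CPM in PTZ. Of the 8 tested, 4 were higher at an unadjusted p under 0.05, where 3.83% of all genes were. Those of fibroblasts summed to 81.2, 82.7 and 138 CPM in PBS and to 238, 80.6 and 244 CPM in PTZ. All 5 tested were positive (median 1.35), where 52.7% of all genes were, and 3 were higher at that threshold, beside the same 3.83%. Those of neutrophils summed to 399, 499.6 and 201 CPM in PBS and to 95.5, 388 and 68.6 CPM in PTZ. In bulk RNA, fewer cells of a type and less RNA per cell cannot be told apart.

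The sites through which interferon acts can be read in the genes' own promoters. RefSeq promoter windows of GRCm38.p6, from 250 bases before to 50 after the start of transcription, were at hand for 25 of the 33 genes. The ISRE core, here GAAA, any 2 bases and GAAA again on either strand, was in 16 of the 25 genes (64%), against 3.99% of all 27025 genes with a window. All 5 GTPase genes with a window and 11 of 20 type I targets held it. The longer form, the core followed by CT, was in 10 of the 25 genes (40%) and in 0.303% of all genes. The GAS letters, TTCNNNGAA, which read the same on both strands, were in 8 of the 25 (32%) and in 9.55% of all genes, and the stricter TTCCNGGAA in 3 (12%) and 1.35%. A match of letters is a description and not a binding site.

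The stretches below run from 120 bases before to 30 after the start. They belong to the type I targets and GTPases with a motif that had the highest mean CPM, not corrected for exon length. Isg15, as the name-giving target, and Irf1 and Igtp, the 2 members with the smallest p, were added after their values were seen. Capitals mark every ISRE core and GAS match, and all are written 5′ to 3′ on the strand of the gene.
Ifitm3, chr7:141010715-141010864 (minus strand): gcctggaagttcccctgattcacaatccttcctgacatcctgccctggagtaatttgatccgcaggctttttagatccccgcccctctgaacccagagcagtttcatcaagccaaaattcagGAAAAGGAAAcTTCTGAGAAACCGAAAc
Ifitm2, chr7:140955932-140956081 (minus strand): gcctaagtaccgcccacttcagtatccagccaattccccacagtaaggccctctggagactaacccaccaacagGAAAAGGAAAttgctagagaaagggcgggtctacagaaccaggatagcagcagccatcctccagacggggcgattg
Isg15, chr4:156200789-156200938 (minus strand): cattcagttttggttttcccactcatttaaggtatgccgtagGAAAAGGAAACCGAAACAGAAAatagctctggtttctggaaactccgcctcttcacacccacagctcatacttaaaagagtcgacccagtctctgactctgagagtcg
Irf1, chr11:53769894-53770043 (plus strand): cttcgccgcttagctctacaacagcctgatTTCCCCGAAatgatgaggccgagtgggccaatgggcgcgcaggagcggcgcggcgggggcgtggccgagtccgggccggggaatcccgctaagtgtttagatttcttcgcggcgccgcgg
Gbp3, chr3:142559924-142560073 (plus strand): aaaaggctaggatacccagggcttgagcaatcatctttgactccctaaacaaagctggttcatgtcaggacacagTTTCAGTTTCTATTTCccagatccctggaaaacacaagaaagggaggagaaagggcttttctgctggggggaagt
Gbp7, chr3:142530216-142530365 (plus strand): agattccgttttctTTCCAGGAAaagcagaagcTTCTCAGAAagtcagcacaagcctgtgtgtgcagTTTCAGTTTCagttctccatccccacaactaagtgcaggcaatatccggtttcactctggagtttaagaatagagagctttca
Igtp, chr11:58199436-58199585 (plus strand): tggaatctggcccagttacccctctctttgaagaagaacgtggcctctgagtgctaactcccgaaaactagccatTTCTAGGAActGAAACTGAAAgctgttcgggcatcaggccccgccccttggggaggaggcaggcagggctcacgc
Isg15 held 3 overlapping ISRE cores on its own strand, which run together from 78 to 57 bases before the start. Ifitm2 held 1 core between 46 and 37 bases before the start, while in Ifitm3 the 2 cores and a GAS match lay after the start. Gbp3 held 2 overlapping cores on the opposite strand, between 45 and 30 bases before the start. In Gbp7 a core on the opposite strand stood 53 to 44 bases before the start and 2 GAS matches stood further away, at 106 to 98 and 87 to 79 bases. Igtp held a core at 34 to 25 bases with a GAS match just before it, at 45 to 37 bases. The Irf1 window of 300 bases held no ISRE core and a single GAS match, 90 to 82 bases before the start.

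No interferon-stimulated gene passed the test between PTZ and PBS once all genes were allowed for, and members with higher and with lower means were nearly equal in number. Of 32 tested members 15 had a positive and 17 a negative log2 fold change, where 52.7% of all 13768 genes tested were positive and 47.3% negative. The median was -0.02, beside 0.03 over all genes tested. No member passed an adjusted p of 0.05 in edgeR's quasi-likelihood test, and neither did any other gene (0% of all genes tested). DESeq2, which called 0.552% of the genes, also called 0 members. At an unadjusted p under 0.05 edgeR had 0 members higher and 1 lower, Irf1, where 3.83% of all genes were higher, 3.38% lower and 7.21% either. A single member, Oas1a, had groups that did not overlap, with all PTZ libraries below all PBS libraries, as in 7.04% of all genes. No member had all PTZ libraries above, as 7.3% of all genes did, and 14.3% of genes did not overlap in either direction. The 95% intervals of the log2 fold change reached 0.60 to each side at the median member. For 22 of 32 members they lay inside a doubling or halving, a larger share than the 34.6% of all genes. Smaller changes lay inside those intervals, so missing the threshold does not show that levels were alike. The median was -0.02 for the 26 tested type I targets and -0.13 for the 6 GTPases, and the latter ran from -0.32 without PTZ replicate 4 to 0.06 without PTZ replicate 2.

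**Figure D1:**
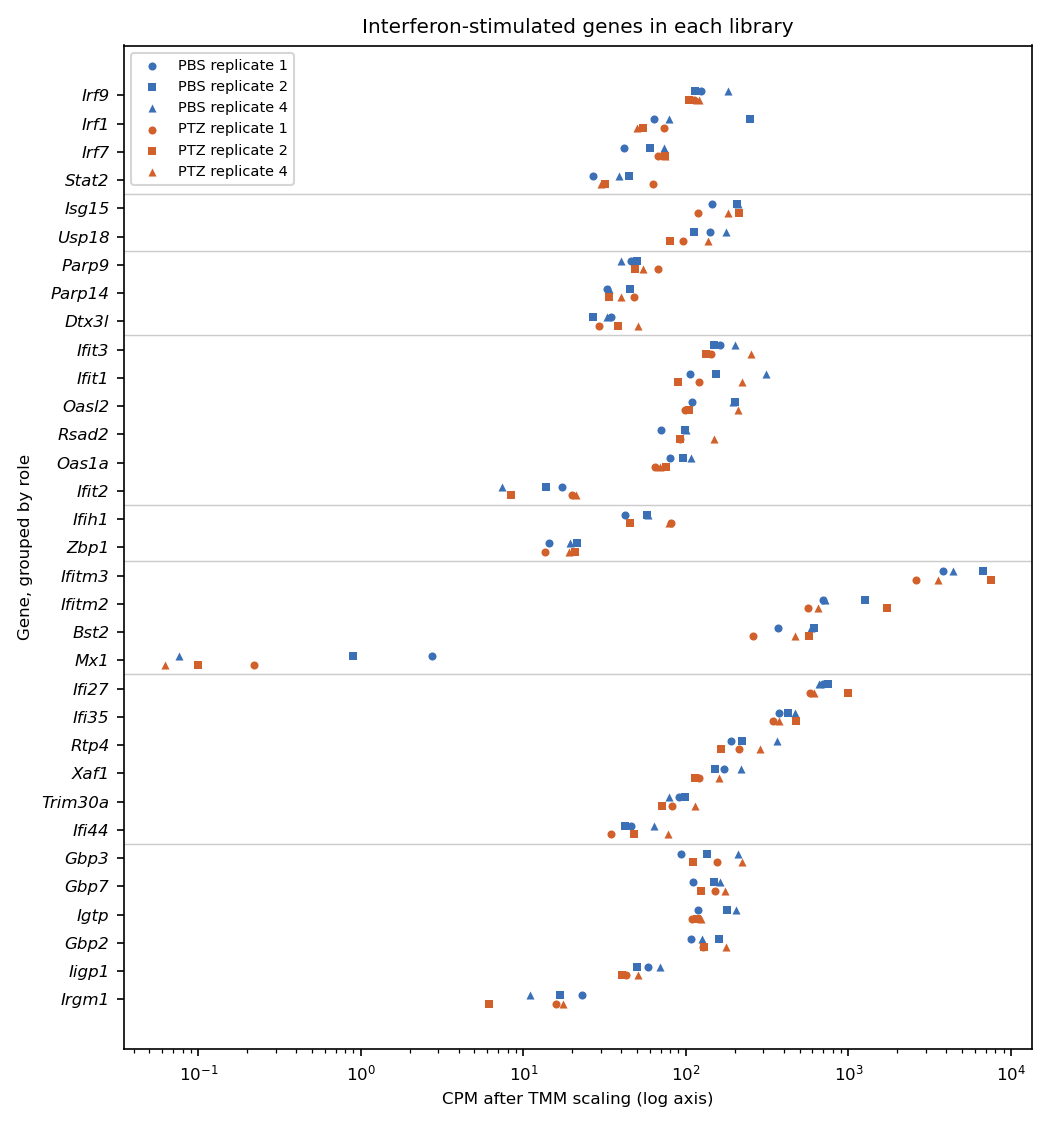
Level of each of the 33 genes in each library, in CPM after TMM scaling on a log axis, with PBS in blue, PTZ in orange and a symbol for each replicate number. Ifitm3 lies highest, at 2613 to 7506 CPM, and Mx1 lowest, and the colours overlap for most genes.

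The members spanned a wide range of levels over the PBS and PTZ libraries together. Per kilobase of exon, on the union of all exons in GENCODE M21, Ifitm3 was the most abundant of the 13757 tested genes with a length, at a mean of 7045 CPM per kilobase over the 6 libraries. Ifitm2 followed at 1429 (rank 26), Bst2 at 530.2 (rank 124) and Ifi27 at 486 (rank 138). Ifi35 and Isg15 came next, at 238 and 237 CPM per kilobase, and did not differ beyond their spread. Of the GTPases 4 of 6, and of the RNA effectors 5 of 6, lay between 23.1 (Rsad2) and 99.0 (Ifit3). Stat2, at 6.59, Dtx3l, Zbp1, Parp14 and Ifit2 lay lower, and the lowest tested member was Irgm1, at 2.59.

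The transcription factors of the response did not move together. Irf1, a factor induced by interferon gamma and by inflammatory cytokines, stood at 63.5, 249 and 78.8 CPM in PBS libraries 1, 2 and 4 and at 73.1, 54.8 and 50.3 CPM in PTZ. PBS replicate 2 lay far above the other 5 libraries, which overlapped between the groups. The log2 fold change was -1.13 (SE 0.46, unadjusted p = 0.0314, adjusted p = 0.686 in edgeR), and without PBS replicate 2 it was -0.30 (unadjusted p = 0.285, adjusted p = 0.829 in edgeR). It passed the adjusted threshold in edgeR only in the fit without a filter on low counts (-1.17, adjusted p = 0.0126). In the same library Icam1, an adhesion molecule induced by inflammatory signals, stood at 653 CPM against 44.8 and 44.1 CPM in the other PBS libraries, and Ch25h, a cholesterol hydroxylase, at 798 CPM against 202 and 138 CPM. In PTZ libraries 1, 2 and 4 Icam1 stood at 147, 346 and 42.3 CPM and Ch25h at 187, 389 and 99.5 CPM. PTZ replicate 2 was thus the second highest library for Icam1 and Ch25h, but not for Irf1, at 54.8 CPM. These 2 genes were singled out after their values were seen, and the part of such genes in the value of Irf1 was not tested.

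Irf7, the factor that amplifies type I interferon synthesis, stood at 41.6, 60.1 and 72.9 CPM in PBS libraries 1, 2 and 4 and at 67.2, 74.5 and 74.5 CPM in PTZ. It was higher in PTZ within all 3 replicate numbers and its log2 fold change was 0.31 (SE 0.24). PBS replicate 4 nevertheless lay among the PTZ libraries, so the groups overlapped. Irf9, the DNA-binding part of the type I complex, stood at 123, 113 and 181 CPM in PBS libraries 1, 2 and 4 and at 112, 104 and 119.6 CPM in PTZ. It was lower in PTZ within all 3 numbers (-0.31, SE 0.23), with most of the difference from PBS replicate 4. Stat2, its partner, stood at 26.9, 44.5 and 38.5 CPM in PBS libraries 1, 2 and 4 and at 62.3, 31.9 and 30.1 CPM in PTZ, and PTZ replicate 1 alone lay above all PBS libraries (0.18, SE 0.33).

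Of the ubiquitin-like modifier ISG15 and the enzyme that removes it, neither passed the adjusted threshold. Isg15 stood at 144, 206 and 210.0 CPM in PBS libraries 1, 2 and 4 and at 119, 212 and 182 CPM in PTZ. The groups overlapped, and the log2 fold change of -0.12 had a 95% interval from -0.71 to 0.47. Usp18, which cleaves ISG15 from proteins and restrains the type I receptor, stood at 140.4, 112 and 176 CPM in PBS libraries 1, 2 and 4 and at 95.4, 80.1 and 137 CPM in PTZ. It was lower in PTZ within all 3 replicate numbers (-0.46, SE 0.26, unadjusted p = 0.110, adjusted p = 0.732 in edgeR). Blocked by replicate number, the edgeR value was -0.47 (unadjusted p = 0.0235, adjusted p = 0.394).

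The 3 members of the ADP-ribosylation and Dtx3l group had positive values, but for each the groups overlapped. Each was higher in PTZ within 2 of the 3 replicate numbers. Parp9, which acts in a complex with the ubiquitin ligase Dtx3l, stood at 45.7, 50.2 and 40.1 CPM in PBS libraries 1, 2 and 4 and at 67.2, 48.9 and 54.6 CPM in PTZ. Dtx3l, whose gene lies head to head with Parp9 and shares 458 exon bases with it on the other strand, stood at 34.6, 26.95 and 32.6 CPM in PBS libraries 1, 2 and 4 and at 29.1, 38.4 and 50.6 CPM in PTZ. Both had a log2 fold change of 0.33 (SE 0.23 and 0.27), and for both the highest library was a PTZ library. Parp14, a mono-ADP-ribosyltransferase, stood at 32.5, 45.3 and 33.4 CPM in PBS libraries 1, 2 and 4 and at 48.2, 33.7 and 39.99 CPM in PTZ, with overlapping groups (0.13, SE 0.25).

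Among effectors that act on viral RNA, 3 had positive and 3 negative values. Ifit1, which binds RNA that lacks the host cap structure, stood at 106, 153 and 309.7 CPM in PBS libraries 1, 2 and 4 and at 121, 89.5 and 220.2 CPM in PTZ. Replicate 4 was the highest library of each group, and the spread between numbers was wider than the difference between groups (-0.40, SE 0.42). Ifit3, its binding partner, stood at 163, 148 and 199.9 CPM in PBS libraries 1, 2 and 4 and at 143, 132 and 251 CPM in PTZ, again with both replicates 4 on top (0.04, SE 0.28). Ifit2, a further family member, was much scarcer at 7.41 to 21.0 CPM (0.36, SE 0.46).

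Oas1a, an oligoadenylate synthetase that activates an antiviral ribonuclease, stood at 79.6, 96.3 and 107 CPM in PBS libraries 1, 2 and 4 and at 64.9, 74.9 and 69.7 CPM in PTZ. All PTZ libraries lay below all PBS libraries, by a narrow margin between PTZ replicate 2 and PBS replicate 1. The log2 fold change was -0.43 (SE 0.21, unadjusted p = 0.0628, adjusted p = 0.700 in edgeR). Oasl2, a related protein, ranged from 98.2 to 210.5 CPM (-0.29, SE 0.34), and Rsad2, the radical enzyme viperin, from 69.9 to 149 CPM (0.31, SE 0.26), both with overlapping groups. The family copies Oas1g and Ifit3b resemble Oas1a and Ifit3 closely, so the division of reads between them is uncertain.

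Of the nucleic acid sensors, Ifih1, which detects long double-stranded RNA in the cytosol, stood at 42.03, 57.2 and 58.04 CPM in PBS libraries 1, 2 and 4 and at 80.8, 44.97 and 78.9 CPM in PTZ. PTZ replicates 1 and 4, the libraries with the highest sums of pericyte and smooth muscle markers and of fibroblast markers, lay above all PBS libraries and PTZ replicate 2 did not (0.38, SE 0.27, the largest positive value among the members). The part of those markers in this value was not tested. Zbp1, which senses left-handed nucleic acid and can start necroptosis, stood at 14.4, 21.3 and 19.3 CPM in PBS libraries 1, 2 and 4 and at 13.6, 20.8 and 18.96 CPM in PTZ, nearly level between the groups (-0.04, SE 0.32).

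The proteins that stop viruses at membranes include the most abundant members, Ifitm3 and Ifitm2. Ifitm3, which blocks fusion of viruses in endosomes, stood at 3836, 6740.0 and 4395 CPM in PBS libraries 1, 2 and 4 and at 2613, 7506 and 3569.9 CPM in PTZ. Both replicates 2 lay above the other 4 libraries and PTZ replicate 1 was lowest, so the groups overlapped widely (-0.13, SE 0.44). Without PTZ replicate 2 the value was -0.73 (SE 0.32, unadjusted p = 0.0499, adjusted p = 0.452 in edgeR). Ifitm2, a close paralog on the same stretch of chromosome 7, stood at 695, 1273 and 719 CPM in PBS libraries 1, 2 and 4 and at 560.1, 1721 and 647 CPM in PTZ, in the same pattern (0.12, SE 0.44). The endothelial marker sum was highest in the same 2 libraries and lowest in PTZ replicate 1. Ly6c1 was its largest marker in each library, at 7306 CPM in PBS replicate 2 and 8504 CPM in PTZ replicate 2. The markers did not share 1 pattern: Ly6c1, Cldn5, Flt1 and Esam were highest in PTZ replicate 2. Slco1a4 and Tek were lowest there, at 646 and 338 CPM, and Cdh5, Kdr and Pecam1 were highest in PTZ replicate 4. The part of endothelial RNA in the values of Ifitm3 and Ifitm2 was not tested. Ifitm2 shares 40.9% of its exon bases with the annotated gene Gm45717 on the same strand, which can remove reads from its count.

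Bst2, the tether that holds budding virus on the cell surface, ranged from 258 to 612 CPM and was lower in PTZ within all 3 numbers (-0.27, SE 0.33). Mx1, a dynamin-like GTPase against influenza viruses, failed the filter on low counts, with 44, 9 and 1 reads in PBS libraries 1, 2 and 4 and 3, 1 and 1 reads in PTZ. Most of its reads thus came from PBS replicate 1, and no fold change is given.

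None of the remaining type I targets passed the adjusted threshold. Ifi27, a small protein of mitochondria and the nuclear envelope, stood at 696, 749 and 659 CPM in PBS libraries 1, 2 and 4 and at 577, 989.6 and 611 CPM in PTZ (0.05, SE 0.28), and PTZ replicate 2 was the highest of all. Ifi35, which regulates innate signalling, stood at 376, 425 and 469 CPM in PBS libraries 1, 2 and 4 and at 344, 477 and 375 CPM in PTZ, with fully overlapping groups (-0.09, SE 0.24). Xaf1, a promoter of apoptosis, ranged from 113 to 219 CPM and was lower in PTZ within all 3 numbers (-0.46, SE 0.23, and -0.46 with the replicate number as a block, unadjusted p = 0.0234, adjusted p = 0.394 in edgeR). Rtp4, a chaperone of membrane receptors, had -0.23 (SE 0.30), Ifi44 0.08 (SE 0.32) and Trim30a, a member of the TRIM family, -0.01 (SE 0.23).

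The 6 GTPase members split evenly, with the guanylate-binding proteins among them slightly positive and the immunity-related GTPases among them negative. Gbp2 stood at 108, 159.7 and 126 CPM in PBS libraries 1, 2 and 4 and at 128, 129 and 177 CPM in PTZ (0.14, SE 0.23). Gbp3 stood at 93.7, 134 and 208 CPM in PBS libraries 1, 2 and 4 and at 155, 111 and 220.4 CPM in PTZ (0.16, SE 0.33). Gbp7 stood at 111, 149.8 and 162 CPM in PBS libraries 1, 2 and 4 and at 151, 124 and 175 CPM in PTZ (0.09, SE 0.23). These 3 genes are neighbours on chromosome 3 and encode proteins that coat and break up vacuoles of pathogens. In each of them PBS replicate 1 was the lowest library and PTZ replicate 4 the highest, but PTZ replicate 2 lay below PBS replicate 2, so the groups overlapped.

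Igtp, an immunity-related GTPase (also Irgm3) that regulates such vacuoles, stood at 119, 179.7 and 203 CPM in PBS libraries 1, 2 and 4 and at 109.7, 117 and 123 CPM in PTZ. All PTZ libraries lay below PBS replicates 2 and 4, and PBS replicate 1 lay inside the PTZ range (-0.52, SE 0.24, unadjusted p = 0.0501, adjusted p = 0.690 in edgeR). It shares 162 exon bases with Irgm2 on the same strand. Iigp1, which assembles on vacuoles and disrupts them, stood at 58.02, 49.95 and 69.5 CPM in PBS libraries 1, 2 and 4 and at 43.04, 40.6 and 50.8 CPM in PTZ (-0.40, SE 0.23), lower in PTZ within all 3 numbers. Irgm1, a regulator that protects the cell's own membranes, stood at 22.9, 16.9 and 11.03 CPM in PBS libraries 1, 2 and 4 and at 15.96, 6.16 and 17.4 CPM in PTZ (-0.36, SE 0.45), and PTZ replicate 2 was lowest. Outside the members, the guanylate-binding protein genes Gbp4, Gbp5 and Gbp9 had negative values (-0.12, -0.45 and -0.28). The scarcer Gbp6 and Gbp8 had positive ones (0.95 and 3.78). That the guanylate-binding proteins and the immunity-related GTPases differ from each other was not tested.

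**Figure D2:**
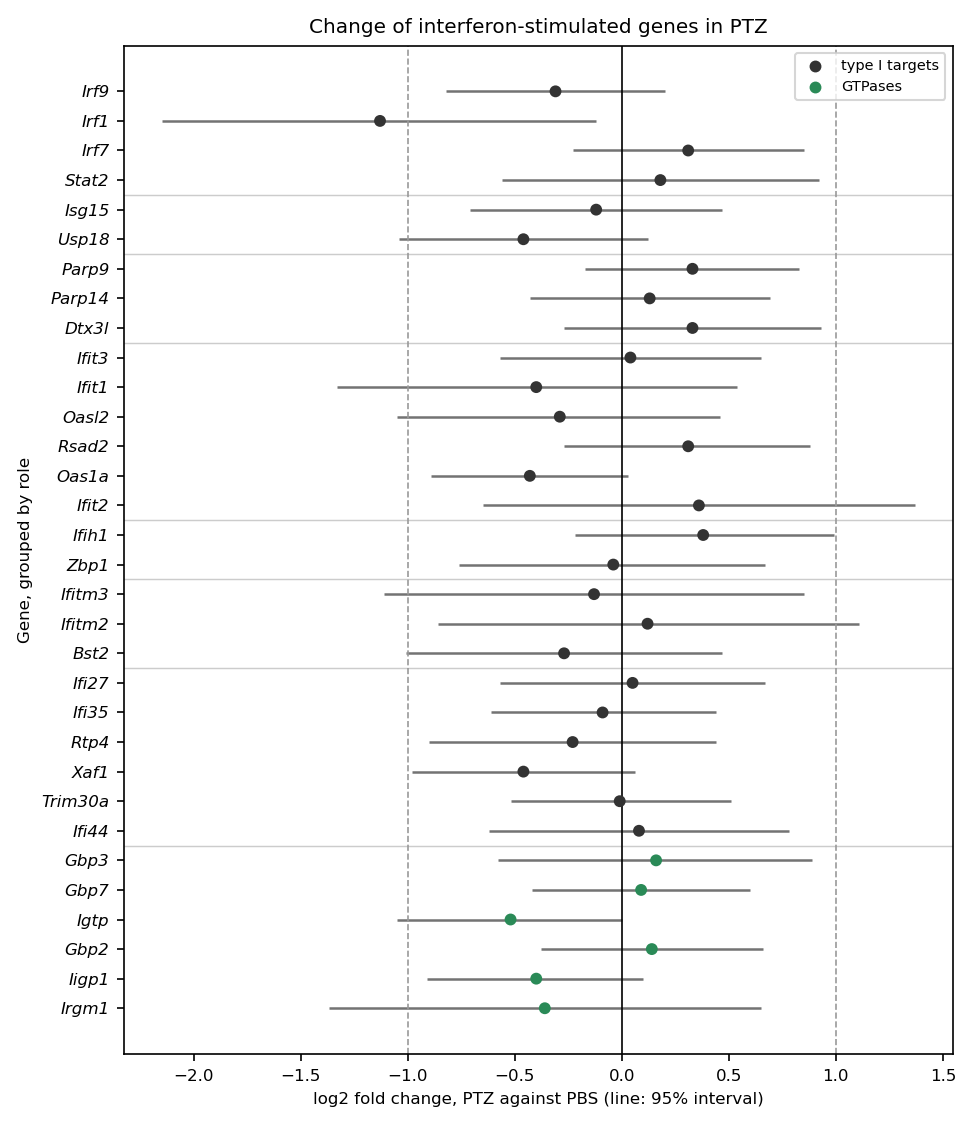
Log2 fold change of PTZ against PBS for the 32 tested genes (points, type I targets in black and GTPases in green) with 95% intervals (lines) from edgeR's quasi-likelihood fit, and dashed lines at a doubling and a halving. The interval of Irf1, from -2.15 to -0.12, leaves out 0, and that of Igtp ends next to it.

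Replicate numbers 1, 2 and 4 are shared by the groups, and libraries of equal number deviated together over all genes. Of 32 members 20 varied more by number than by group (mean squares of log2 CPM), a share near the 56.2% of all genes. Within numbers 1, 2 and 4, PTZ was lower for 19, 24 and 17 of the 32 members, with median log2 differences of -0.13, -0.29 and -0.07. The share of all genes within each number is not given here. In all, 8 members were lower in PTZ within all 3 numbers (Irf9, Usp18, Oas1a, Zbp1, Bst2, Xaf1, Igtp and Iigp1) and 1, Irf7, was higher, where 16.6% of all genes were lower and 18.5% higher in that way. With the number as a block, edgeR had 4 members lower at an unadjusted p under 0.05, where 5.31% of all genes were lower. In edgeR these were Usp18 (-0.47, unadjusted p = 0.0235, adjusted p = 0.394), Xaf1 (-0.46, unadjusted p = 0.0234, adjusted p = 0.394), Igtp (-0.49, unadjusted p = 0.0306, adjusted p = 0.409) and Oas1a (-0.43, unadjusted p = 0.0480, adjusted p = 0.455). Irf1 was not among them (unadjusted p = 0.0516, adjusted p = 0.463 in edgeR), and 0 members passed the adjusted threshold. Beside these lower values, the microglia and macrophage sum was also lower in PTZ within all 3 numbers, and its part in them was not tested. PTZ replicate 4 held the highest value of 11 members and PBS replicate 4 that of 8, while PTZ replicate 1 held the lowest of 11, PTZ replicate 2 of 9 and PBS replicate 1 of 8. The same counts over all genes are not given here, so this order of libraries is not shown to be particular to the members.

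**Figure D3:**
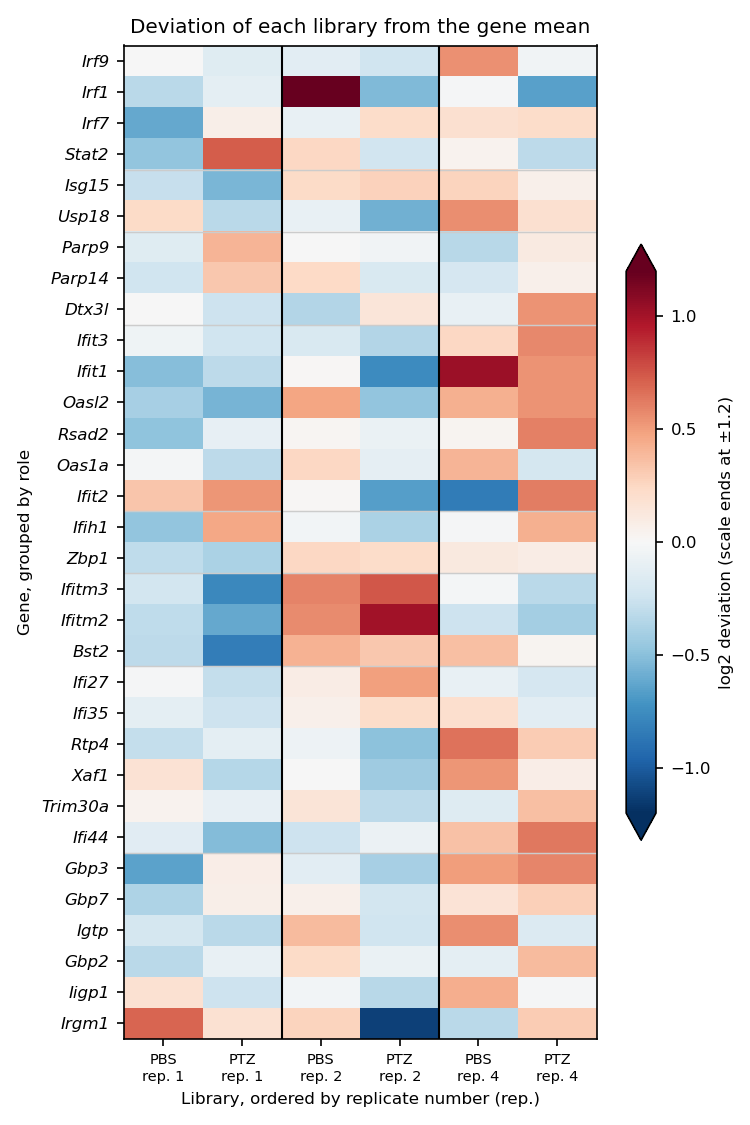
Log2 deviation of each library (columns, in pairs of equal replicate number) from the mean of each tested gene (rows, by role), with red above and blue below the mean. Ifitm3 and Ifitm2 are red in both libraries numbered 2, Ifit1 and Ifit3 in both numbered 4, and Irf1 in PBS replicate 2 alone.

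The steps above these genes were measured in the same libraries. Interferon transcripts themselves were next to absent: of Ifnb1, Ifna4, Ifng, Ifnl2 and Ifnl3, 3 had no read in any library, Ifnb1 had a single read in PTZ replicate 4 and Ifnl2 a single read in PBS replicate 2. Of 8 tested receptor and kinase genes 1 had a positive and 1 a negative value at an unadjusted p under 0.05. Over all genes 7.21% passed that threshold in either direction and 14.3% had groups that did not overlap. Jak2, the kinase of the interferon gamma receptor and of several cytokine receptors, stood at 25.6, 29.02 and 30.4 CPM in PBS libraries 1, 2 and 4 and at 46.99, 39.8 and 44.9 CPM in PTZ, with all PTZ libraries above all PBS libraries (0.63, SE 0.23, unadjusted p = 0.0191, adjusted p = 0.648 in edgeR). Il10rb, a receptor chain shared by interferon lambda and interleukins of the IL-10 family, stood at 75.1, 78.7 and 83.4 CPM in PBS libraries 1, 2 and 4 and at 49.3, 54.6 and 52.9 CPM in PTZ, with all PTZ libraries below (-0.60, SE 0.20, unadjusted p = 0.0126, adjusted p = 0.637 in edgeR). The type I receptor chains Ifnar1 and Ifnar2 had 0.16 (SE 0.22) and 0.19 (SE 0.28), with overlapping groups.

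Of the transcription factors outside the members, Irf8, a factor of myeloid cells, stood at 25.7, 26.3 and 21.8 CPM in PBS libraries 1, 2 and 4 and at 11.1, 22.8 and 13.3 CPM in PTZ (-0.64, SE 0.34, unadjusted p = 0.0855, adjusted p = 0.710 in edgeR). Stat3, which serves interleukin signals, stood at 158, 164 and 132 CPM in PBS libraries 1, 2 and 4 and at 245, 205 and 156 CPM in PTZ (0.42, SE 0.23, unadjusted p = 0.0990, adjusted p = 0.720 in edgeR). Of 10 genes of upstream sensing 1 was higher, Ticam1, the adaptor of TLR3, at 13.1, 12.6 and 8.01 CPM in PBS libraries 1, 2 and 4 and at 22.1, 36.4 and 11.1 CPM in PTZ (1.04, SE 0.44, unadjusted p = 0.0401, adjusted p = 0.690 in edgeR), with overlapping groups. Of 4 tested negative regulators 0 passed, among them Ptpn6, a phosphatase of blood cells (-0.30, SE 0.37), and Socs3, an inhibitor of cytokine receptors (0.45, SE 0.67).

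Among 38 further type I targets the median log2 fold change was 0.09, and at an unadjusted p under 0.05 there were 2 higher and 1 lower, where 3.83% and 3.38% of all genes were, so the count is near the background. Slfn2, a regulator of immune cell quiescence, stood at 95.4, 115 and 116 CPM in PBS libraries 1, 2 and 4 and at 60.5, 72.7 and 71.8 CPM in PTZ and was lower in PTZ without overlap (-0.67, SE 0.20, unadjusted p = 0.00789, adjusted p = 0.615 in edgeR). Parp10 stood at 33.9, 25.96 and 28.9 CPM in PBS libraries 1, 2 and 4 and at 43.3, 56.8 and 41.6 CPM in PTZ and was higher without overlap (0.67, SE 0.24, unadjusted p = 0.0197, adjusted p = 0.648 in edgeR). Trim21, the cytosolic antibody receptor, was also higher without overlap, on 9, 8 and 21 reads in PBS and 56, 17 and 83 in PTZ (1.90, SE 0.84, unadjusted p = 0.0471, adjusted p = 0.690 in edgeR). Of 11 tested other interferon GTPases 8 had a negative value, with a median of -0.42, and 1 was higher at that threshold, the rare Gbp8, with 13, 0 and 0 reads in PBS and 89, 12 and 71 in PTZ. Both Trim21 and Gbp8 met the filter on low counts only through their PTZ libraries, so their higher values cannot count as support. Of 11 tested interferon gamma targets beside the GTPases 1 was higher, Nlrc5, the activator of class I antigen presentation, at 5.06, 11.8 and 8.01 CPM in PBS libraries 1, 2 and 4 and at 18.9, 13.3 and 15.3 CPM in PTZ (0.93, SE 0.42, unadjusted p = 0.0489, adjusted p = 0.690 in edgeR). The chemokine Cxcl10 was lower in that list, at 16.1, 28.5 and 1.89 CPM in PBS libraries 1, 2 and 4 and at 2.12, 5.56 and 5.82 CPM in PTZ (-1.78, SE 0.80, unadjusted p = 0.0497, adjusted p = 0.690 in edgeR), although PBS replicate 4 lay below all PTZ libraries.

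**Figure D4:**
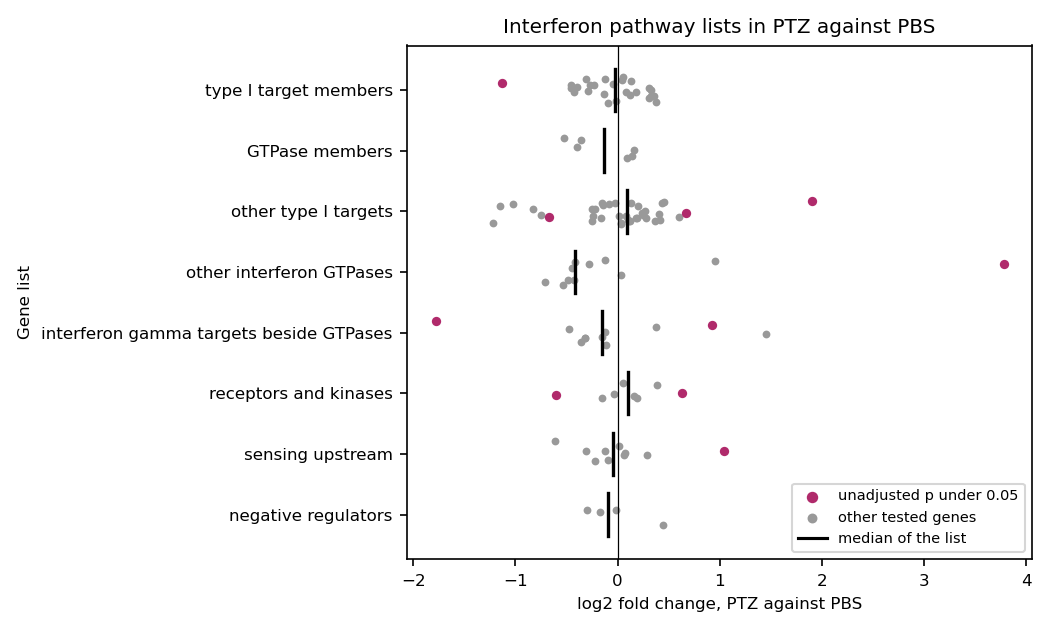
Log2 fold change of PTZ against PBS for the tested members and 6 other interferon lists (points, in purple where the unadjusted p in edgeR was under 0.05), with the median of each list as a bar. Medians lie between -0.42 for the other interferon GTPases and 0.10 for receptors and kinases.

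Fold changes were also set beside the promoter motifs. The 16 with an ISRE core had a median log2 fold change of 0.01 (range -0.52 to 0.38) and the 9 without had -0.09 (range -1.13 to 0.36). The 8 with GAS letters had -0.20 and the 17 without 0.08, and the lowest value in the first group is that of Irf1, which rests on PBS replicate 2. These medians are descriptions of a chosen list and were not tested.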

How the data were processed

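The authors deposited whole-number read counts per gene for 6 libraries and, per library, a scaled signal. The submitters' processing notes name the build GRCm38 and the tools HTSeq, edgeR, TopHat2 2.1.1 and CASAVA, without saying what each did. The signal the authors deposited is the count divided by 1 factor per library (100% of values whole within 0.01 reads), and that factor served as an alternative scaling. The 5 summary rows, 16.1% to 22.9% of reads, were left out. No source used here states the strand setting.

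The filter filterByExpr, with a minimum total of 15 and a minimum count of 10, left 13768 genes, which were scaled by TMM and tested with edgeR 4.0.16 (R 4.3.3) by its quasi-likelihood test, 2-sided, threshold 0.05; DESeq2 1.42.0 and limma 3.58.1 were alternatives. Each SE is the fold change divided by the square root of its F statistic. The test was tested on simulated counts with known changes. Deviations from group means correlated at 0.206, 0.266 and 0.263 between libraries of equal number, over the threshold of 0.1 by which numbers were taken to pair them.

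Named genes were members whose groups do not overlap or with an unadjusted p under 0.05, the 2 of highest mean level in each role group, all GTPases, Isg15, Ifit1, Ifitm3, Irf7, Irf9 and Stat2, and up to 4 genes by p, or otherwise 2, of each other list; other members are given by range. Members and lists were chosen with earlier results of these data known. Coordinates and exon lengths are from GENCODE M21 and promoters from RefSeq (GRCm38.p6). The summary of a further list of transcription factors is not reported here.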

Additional observations from a re-analysis of the deposited data

How the results depend on the processing

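Each result was recomputed under 11 other settings and without each of the 6 libraries. No member passed the adjusted threshold in any of them except Irf1 without the filter on low counts, where 1 member was lower (-1.17, adjusted p = 0.0126 in edgeR, which there called 121 of 34777 genes); over the other settings its adjusted p ran from 0.209 to 1, and the cause was not tested. Over all genes tested, 0 were called in the main fit, 76 by DESeq2, 57 by the edgeR exact test, 1 by limma-voom, 8 without PBS replicate 2 and 207 by DESeq2 with the replicate block. Members lower at an unadjusted p under 0.05, 1 in the main fit, were 2 in DESeq2, with RLE scaling, with the other quasi-likelihood option and with a mean of at least 5 CPM, 3 with the authors' scaling and without a filter, and 0 in limma-voom. With the replicate number as a block they were 4 in edgeR and 4 in DESeq2, and the block changed no adjusted call of a member. Without a library they ran from 1 to 3, and members higher from 0 to 1. The median of the members ran from -0.16 to 0.05 over all settings. Small fold changes turned sign. Ifit3 was -0.02 with the authors' scaling, in limma-voom and in DESeq2 with the block and -0.01 in edgeR with the block, Ifitm2 -0.01 and -0.02 with the block in edgeR and DESeq2, Ifi27 -0.03 with the authors' scaling, -0.0024 without a filter and -0.0016 in DESeq2 with the block, and Trim30a 0.04 without scaling factors. Leaving out a library turned the sign of 16 members, whose values ran as follows: Stat2 -0.24 to 0.36, Isg15 -0.34 to 0.08, Parp14 -0.01 to 0.27, Ifit1 -0.85 to 0.13, Ifit3 -0.32 to 0.17, Zbp1 -0.21 to 0.12, Ifitm2 -0.61 to 0.44, Ifitm3 -0.73 to 0.15, Ifi27 -0.28 to 0.19, Ifi35 -0.28 to 0.01, Ifi44 -0.30 to 0.31, Rtp4 -0.46 to 0.07, Trim30a -0.22 to 0.09, Gbp2 -0.04 to 0.27, Gbp3 -0.13 to 0.48 and Gbp7 -0.05 to 0.17. The stricter promoter motifs are given beside the main ones. Depth limits Mx1 above all, which had at most 44 reads in a library; every other member had at least 62 reads in each library.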
